A study of Homo sapiens with 6 samples.

Results

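The NRF2 target redox enzymes described here are 9 genes, AKR1C1, AKR1C2, AKR1C3, AKR1B10, NQO1, GCLM, GCLC, TXNRD1 and SRXN1. They were taken by gene symbol from a table of 18678 genes, and all 9 were found. Cal27-shGRK2 cells, which carry a short hairpin RNA against the receptor kinase GRK2, were set against Cal27 cells. Cal27 is an established human line, derived from a tongue squamous carcinoma, and both groups grew in serum-containing medium without a stated treatment. A control vector in the Cal27 cells is not mentioned in the labels, nor is the number of hairpins or clones. Each group has 3 libraries of stranded mRNA by its labels, but replicates 0 and 1 of Cal27-shGRK2 had the same value in all 18678 genes. These identical columns were counted as 1 sample, called the doubled library below. Each comparison is therefore of 2 Cal27-shGRK2 libraries with 3 Cal27 libraries. Nothing in the labels ties libraries to separate cultures, so each p-value covers the spread among these libraries alone, and that spread may be technical.

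NRF2, the product of NFE2L2, is a transcription factor that switches on genes for detoxification and thiol reduction. The sensor protein KEAP1 normally holds it for ubiquitination by a CUL3 ligase. Oxidants and electrophiles disable KEAP1, and NRF2 then accumulates, pairs with a small MAF protein and binds antioxidant response elements near its targets. The pathway is known to be activated by mutation in a share of squamous carcinomas, and its target enzymes are widely used as its readout.

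Sequences are shown first for the genes whose values depend on them. AKR1C1, AKR1C2 and AKR1C3 lie side by side on chromosome 10 and encode closely related enzymes. Their coding sequences (GENCODE version 29 transcripts) each have 972 bases, of which AKR1C1 and AKR1C2 share 953 (98.05% identity), with 1 identical run of 189 bases. AKR1C3 is less alike, with 91.46% identity to AKR1C1 and 91.05% to AKR1C2. Of all 50-base words of the AKR1C1 coding sequence, 51.79% also occur in AKR1C2 and 14.63% in AKR1C3, and at 75 bases these shares are 33.63% and 7.68%. Reads from such stretches cannot be assigned to a single gene. The 60-base stretch below, from coding base 103 to 162, holds more differences between AKR1C1 and AKR1C2 than any other of that length, 10 of the 19 in all. Capitals mark the 15 positions at which the 3 genes are not all alike.
AKR1C1: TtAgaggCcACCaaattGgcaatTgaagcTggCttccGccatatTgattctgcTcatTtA
AKR1C2: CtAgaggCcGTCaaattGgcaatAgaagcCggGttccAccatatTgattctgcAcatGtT
AKR1C3: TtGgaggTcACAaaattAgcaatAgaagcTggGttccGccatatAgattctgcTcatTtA

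The promoter windows are the 250 bases before each gene's start in RefSeq on GRCh38.p14, written along the gene's own strand. RefSeq starts can differ from the ends of the GENCODE gene spans given below. The windows of GCLC, NQO1, AKR1C2 and AKR1C3, for example, lie inside those spans. The table held 10 windows for 8 of the 9 genes. They were searched on both strands for TGACNNNGC, the core of the antioxidant response element, which occurs in 10.91% of all 35116 promoter windows of this length. It was found in 3 of the 10 windows, those of GCLM and both starts of TXNRD1, and the matches are in capitals. None of the 3 matches overlapped TGANTCA, the AP-1 site, which was found in 6.57% of all windows. GCLC and GCLM encode the subunits of one enzyme and are shown for that reason, and AKR1C1 and AKR1C2 because their windows share an unbroken stretch of 245 bases although the genes lie on opposite strands. A window with no match says only that these letters were not found there.
GCLM (minus strand, chr1:93909431-93909680): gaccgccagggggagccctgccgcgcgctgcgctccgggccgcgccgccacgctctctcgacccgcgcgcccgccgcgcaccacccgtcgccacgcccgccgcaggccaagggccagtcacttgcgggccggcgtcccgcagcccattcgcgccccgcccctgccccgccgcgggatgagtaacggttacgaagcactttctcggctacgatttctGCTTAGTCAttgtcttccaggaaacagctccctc
GCLC (minus strand, chr6:53545102-53545351): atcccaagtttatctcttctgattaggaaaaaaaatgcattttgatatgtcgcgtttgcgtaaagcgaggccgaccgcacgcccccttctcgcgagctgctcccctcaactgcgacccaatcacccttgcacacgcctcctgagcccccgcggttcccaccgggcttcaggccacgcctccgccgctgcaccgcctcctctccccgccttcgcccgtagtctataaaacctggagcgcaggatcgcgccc
TXNRD1, first start (plus strand, chr12:104215529-104215778): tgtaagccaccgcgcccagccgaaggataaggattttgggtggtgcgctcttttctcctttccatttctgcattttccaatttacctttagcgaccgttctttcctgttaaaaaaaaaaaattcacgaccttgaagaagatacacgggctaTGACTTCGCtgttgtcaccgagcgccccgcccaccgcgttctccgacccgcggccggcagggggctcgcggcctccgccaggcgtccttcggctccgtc
TXNRD1, second start (plus strand, chr12:104286782-104287031): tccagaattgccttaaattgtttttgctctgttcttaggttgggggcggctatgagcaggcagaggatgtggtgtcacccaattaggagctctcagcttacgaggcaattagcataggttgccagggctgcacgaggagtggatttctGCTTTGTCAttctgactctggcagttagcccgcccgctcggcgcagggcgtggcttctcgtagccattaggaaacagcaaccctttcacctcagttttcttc
AKR1C1 (plus strand, chr10:4963165-4963414): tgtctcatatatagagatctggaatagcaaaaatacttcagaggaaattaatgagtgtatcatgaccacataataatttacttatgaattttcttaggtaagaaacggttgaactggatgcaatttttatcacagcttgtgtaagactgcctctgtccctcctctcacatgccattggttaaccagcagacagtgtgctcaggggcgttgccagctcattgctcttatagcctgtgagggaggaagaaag
AKR1C2 (minus strand, chr10:5003858-5004107): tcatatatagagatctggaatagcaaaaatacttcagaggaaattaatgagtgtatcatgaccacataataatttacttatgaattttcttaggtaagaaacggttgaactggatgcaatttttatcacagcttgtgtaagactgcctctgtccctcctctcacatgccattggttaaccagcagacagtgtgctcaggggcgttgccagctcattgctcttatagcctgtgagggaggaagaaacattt

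The GCLM match, TGACTAAGC read on the opposite strand, lies from position -34 to -26 relative to the start. The TXNRD1 matches lie from -99 to -91 before the first start (TGACTTCGC, on the gene's strand) and from -102 to -94 before the second (TGACAAAGC, on the opposite strand).

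The values are FPKM, fragments per kilobase of transcript and per unit of mapped fragments, so levels can be compared between genes on this per-length scale. Sequencing depth could not be recovered from them, and no counting interval is given. The FPKM of the table summed to 590163 and 615468 in the Cal27-shGRK2 libraries and to between 613330 and 644831 in the Cal27 libraries. GRK2, listed as ADRBK1, had 17.3 and 16.6 FPKM in the Cal27-shGRK2 libraries, against 55.3, 59.4 and 55.8 FPKM in the Cal27 libraries. All 8 squamous epithelial markers looked up were in the table, and their summed FPKM was 1462 to 1484 in Cal27-shGRK2 and 3212 to 3573 in Cal27. Of the 8, 6 fell (KRT5, KRT14, KRT17, TP63, DSG3 and SFN) and 2 rose in the limma test described below. Over all genes tested there, 14.6% were called lower and 15.0% higher. KRT14 and DSG3 met its filter of 1 FPKM through the Cal27 libraries alone. KRT5, the most abundant, averaged 756 FPKM in Cal27-shGRK2 and 2187 FPKM in Cal27 and made up most of the difference in the sum. Relative to Cal27, KRT17 (53.8 FPKM in Cal27-shGRK2 and 446 FPKM in Cal27) and KRT14 (0.197 and 18.9 FPKM) fell further. The epithelial adhesion genes CDH1 (102 FPKM in Cal27-shGRK2 and 68.6 FPKM in Cal27) and EPCAM (191 FPKM in Cal27-shGRK2 and 140 FPKM in Cal27) were the ones that rose. Markers of other cell types were sparse, with 4 of 8 fibroblast genes in the table (summed FPKM 4.38 to 4.46 in Cal27-shGRK2 and 4.35 to 4.71 in Cal27) and 2 of 8 blood and endothelial genes (7.53 to 7.54 in Cal27-shGRK2 and 4.27 to 4.76 in Cal27), which were CD14 and CDH5. Melanocyte and neural genes had 4 of 8 in the table (30.5 to 30.6 in Cal27-shGRK2 and 18.3 to 21.1 in Cal27), nearly all of it from TUBB3 and ENO2. None of the marker genes in the table was at 0 in all libraries of a group. The part of these markers in the results on the redox enzymes was not tested, and in bulk RNA fewer cells of a type cannot be told apart from less RNA per cell.

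The authors' FPKM value for the Cal27 condition equalled the mean of its 3 columns in 100% of 12920 genes within a relative tolerance of 1e-04. Their value for Cal27-shGRK2 equalled the mean of the deposited columns in 0.302% of those genes. If that value is also a mean of 3 libraries, the missing one can be computed from it, and this computed library is given beside the 2 distinct ones below. It enters no test except as an alternative.

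Among the 9 enzymes, 5 were expressed at 12 FPKM or more in every library and 4 lay near or below 1 FPKM. NQO1, SRXN1 and TXNRD1 were the most abundant, with mean FPKM over the 5 libraries that ranked 866th, 1125th and 1266th of 18678 genes. GCLM ranked 3070th and GCLC 5740th. The aldo-keto reductases ranked 14009th (AKR1C2), 15335th (AKR1B10), 15584th (AKR1C1) and 17472nd (AKR1C3). NRF2 activity was not measured. The limma test on log2(FPKM + 1) took in the 13377 genes that averaged 1 FPKM or more, and calls rest on a Benjamini-Hochberg adjusted p under 0.05 across them. The 5 abundant members passed that filter and the 4 aldo-keto reductases did not.

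**Figure D1:**
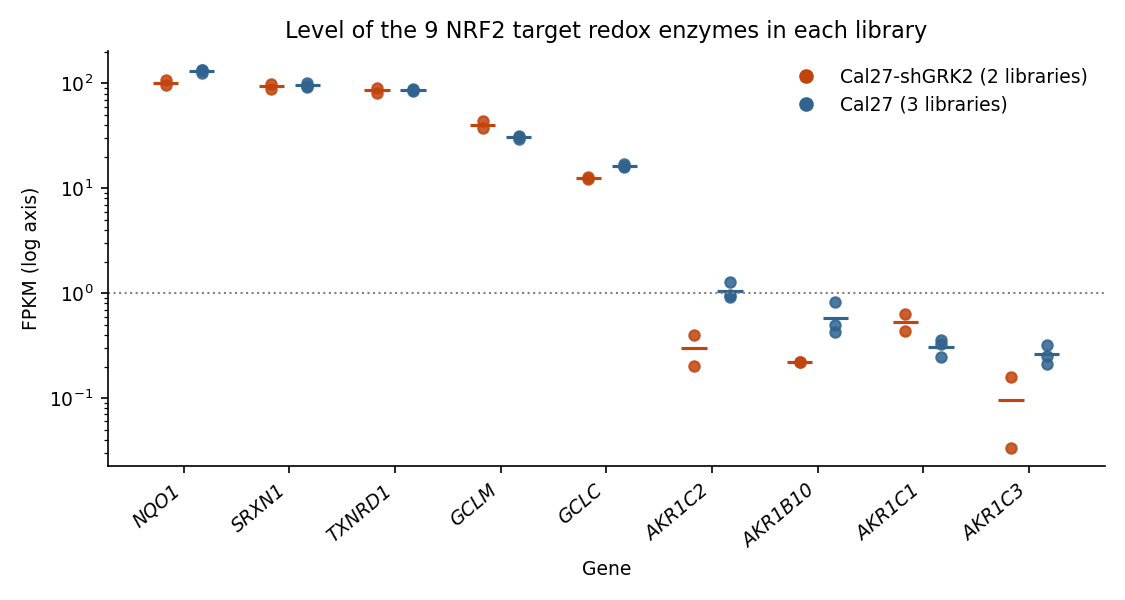
FPKM of the 9 genes in each library on a log axis. Points are libraries, horizontal lines are group means, and the dotted line marks 1 FPKM. NQO1, SRXN1, TXNRD1, GCLM and GCLC lie above 12 FPKM in every library, and the 4 aldo-keto reductases lie at 1.29 FPKM or less.

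Of the 5 tested members, GCLM rose, NQO1 and GCLC fell, and TXNRD1 and SRXN1 did not pass. That is 3 of 5 called, where 29.6% of all genes tested were called (15.0% higher and 14.6% lower), and the median log2 fold change of the 5 was -0.05, against -0.01 over all genes tested. The count stayed at 1 higher and 2 lower when each of the 5 libraries was left out in turn, although the number of genes called among all tested dropped to 2600 without the doubled Cal27-shGRK2 library. The changes were small. A change at least as large as that of GCLM was seen in 15.1% of all genes tested, and for NQO1 and GCLC the shares were 15.8% and 16.6%.

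NQO1 (ENSG00000181019.12, chromosome 16, 69706996 to 69726951, minus strand) encodes a quinone reductase that keeps quinones from cycling with oxygen, and it is the enzyme most often used to read out NRF2 activity. It had 95.6 and 107 FPKM in the Cal27-shGRK2 libraries, with a computed library at 104 FPKM, against 126, 135 and 133 FPKM in the Cal27 libraries. Both Cal27-shGRK2 libraries were below every Cal27 library. The mean was 101 ± 7.84 FPKM in Cal27-shGRK2 (SD, n = 2) and 131 ± 4.73 FPKM in Cal27 (SD, n = 3), a difference of -23.0%. The log2 fold change was -0.38 ± 0.07 (SE, limma adjusted p = 4.2e-04).

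GCLC and GCLM encode the catalytic and the modifier subunit of glutamate-cysteine ligase, the rate-limiting enzyme of glutathione synthesis, and they changed in opposite directions. GCLM (ENSG00000023909.9, chromosome 1, 93885205 to 93909456, minus strand) had 37.6 and 43.4 FPKM in Cal27-shGRK2, with a computed library at 36.7, against 31.0, 29.6 and 31.4 FPKM in Cal27. Its log2 fold change was 0.39 ± 0.07 (SE, limma adjusted p = 6.8e-04), and the mean was 32.1% higher. GCLC (ENSG00000001084.10, chromosome 6, 53497341 to 53616970, minus strand) had 12.2 and 12.9 FPKM in Cal27-shGRK2, with a computed library at 13.2, against 16.2, 17.0 and 16.0 FPKM in Cal27. Its log2 fold change was -0.36 ± 0.07 (SE, limma adjusted p = 0.0010), and the mean differed by -23.6%. In neither gene did the groups overlap.

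Because both subunits were measured in the same libraries, their ratio does not depend on how libraries are scaled. The ratio of GCLM to GCLC FPKM was 3.09 and 3.36 in the Cal27-shGRK2 libraries, and 1.92, 1.74 and 1.96 in the Cal27 libraries. The mean ratio was 3.23 ± 0.192 in Cal27-shGRK2 (SD, n = 2) and 1.87 ± 0.119 in Cal27 (SD, n = 3), 1.72-fold higher. The computed Cal27-shGRK2 library was 2.78, again above all Cal27 libraries. In the two-sided exact permutation test over libraries p was 0.1, its minimum for 2 against 3, and the ratio was chosen after the values of both genes were seen.

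**Figure D2:**
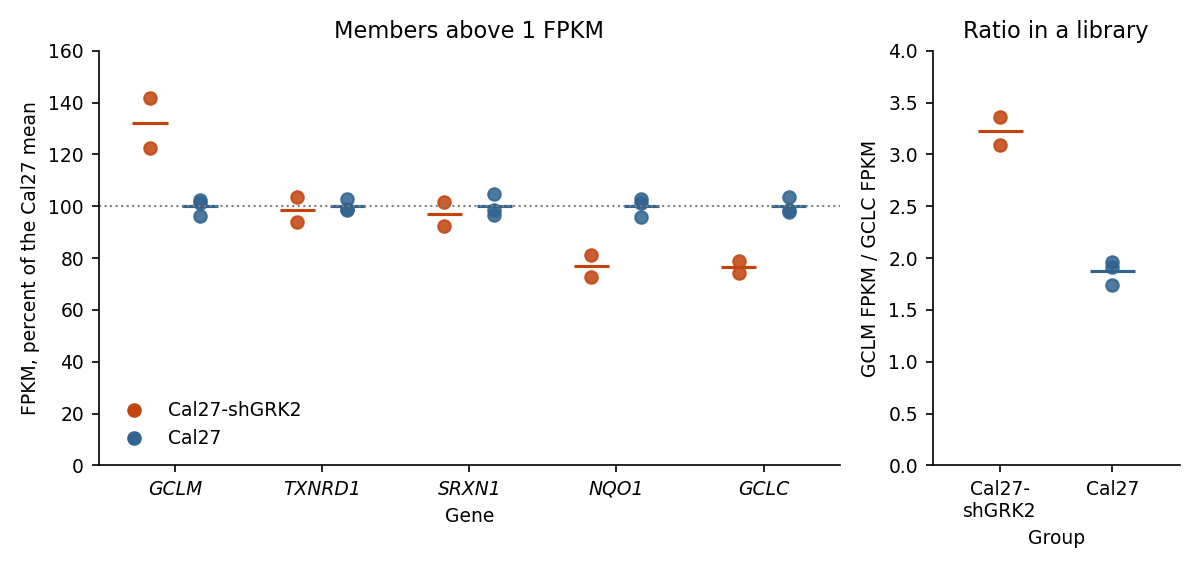
Left, FPKM of the 5 abundant members in each library as a percent of the Cal27 mean. Right, the ratio of GCLM to GCLC FPKM in each library. Points are libraries and lines are group means. GCLM lies above and NQO1 and GCLC lie below all Cal27 libraries, TXNRD1 and SRXN1 overlap them, and the ratio is 3.09 and 3.36 in Cal27-shGRK2 against 1.74 to 1.96 in Cal27.

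The tested members that act with thioredoxin and peroxiredoxins, TXNRD1 and SRXN1, did not pass. TXNRD1 (ENSG00000198431.15, chromosome 12, 104215779 to 104350305, plus strand) encodes the cytosolic selenoprotein that reduces thioredoxin. It had 81.4 and 89.7 FPKM in Cal27-shGRK2, with a computed library at 83.8, against 85.8, 89.0 and 85.3 FPKM in Cal27. SRXN1 (ENSG00000271303.1, chromosome 20, 646615 to 653370, minus strand) encodes sulfiredoxin, which restores over-oxidised peroxiredoxins. It had 89.0 and 98.1 FPKM in Cal27-shGRK2, with a computed library at 91.8, against 93.2, 101 and 95.1 FPKM in Cal27. For both genes the groups overlapped. The log2 fold change of TXNRD1 was -0.02, with a 95% interval of -0.15 to 0.11 (limma adjusted p = 0.84), and that of SRXN1 was -0.05, with an interval of -0.19 to 0.09 (adjusted p = 0.65). These intervals do not reach the changes of GCLM, NQO1 or GCLC.

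The aldo-keto reductases act on steroids, prostaglandins, retinal and lipid aldehydes. The 3 AKR1C genes share a single locus in the authors' deposited table (chromosome 10, 4922563 to 5135226, hg38). AKR1C2 (ENSG00000151632.16, 4987400 to 5018031, minus strand), which reduces dihydrotestosterone, had 0.203 and 0.398 FPKM in Cal27-shGRK2, with a computed library at 0.343, against 0.963, 1.29 and 0.914 FPKM in Cal27. AKR1C3 (ENSG00000196139.12, 5035354 to 5107686, plus strand), which forms testosterone and prostaglandin F, had 0.158 and 0.0339 FPKM in Cal27-shGRK2, with a computed library at 0.152, against 0.213, 0.250 and 0.321 FPKM in Cal27. Both were lower in each Cal27-shGRK2 library than in any Cal27 library.

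AKR1C1 (ENSG00000187134.12, 4963253 to 4983283, plus strand), which inactivates progesterone, was instead higher in each Cal27-shGRK2 library than in any Cal27 library. It had 0.439 and 0.634 FPKM in Cal27-shGRK2, with a computed library at 0.451, against 0.355, 0.246 and 0.329 FPKM in Cal27. AKR1C1 made up 54.8% and 59.5% of the summed AKR1C FPKM in Cal27-shGRK2, and 23.2%, 13.7% and 21.0% in Cal27. At levels this low and with so much shared sequence, the split among the 3 genes is uncertain, and these shares were chosen after the values were seen.

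The sum of the 3 genes, which depends less on that split, was 0.800 and 1.07 FPKM in Cal27-shGRK2 and 1.53, 1.79 and 1.56 FPKM in Cal27. Its mean was 0.933 ± 0.188 FPKM in Cal27-shGRK2 (SD, n = 2) and 1.63 ± 0.141 FPKM in Cal27 (SD, n = 3), 1.75-fold lower. Entered as 1 row of the fit, the sum fell by 0.45 ± 0.11 on the log2(FPKM + 1) scale (SE, limma adjusted p = 0.0065), which understates the change of values this low. The sum met the filter of 1 FPKM through the Cal27 libraries, since its Cal27-shGRK2 mean lay under 1, so its call is not independent of the filter. With a pseudocount of 0.1 the log2 fold change was -0.75. The call was lost without the doubled Cal27-shGRK2 library (-0.35, adjusted p = 0.10). In the two-sided exact permutation test over libraries p was again 0.1, its minimum here.

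**Figure D3:**
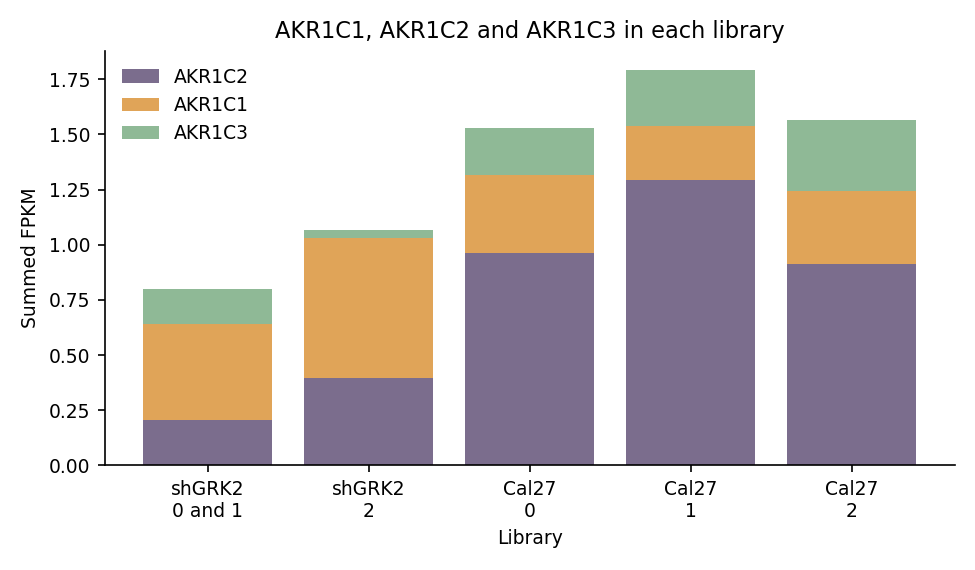
Summed FPKM of AKR1C2, AKR1C1 and AKR1C3 in each of the 5 distinct libraries. The bars reach 0.800 and 1.07 FPKM in Cal27-shGRK2 and 1.53 to 1.79 FPKM in Cal27, and the AKR1C1 part is larger and the AKR1C2 part smaller in both Cal27-shGRK2 bars.

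AKR1B10 (ENSG00000198074.9, chromosome 7, 134527592 to 134541408, plus strand), a retinal and lipid aldehyde reductase, had 0.221 FPKM in both Cal27-shGRK2 libraries, against 0.431, 0.503 and 0.818 FPKM in Cal27. The computed library was at 0.379 FPKM, which is nearer to Cal27 but still below its lowest library. AKR1B10 can share reads with its close relative AKR1B15. When no filter on low values was applied, AKR1C2 (-0.66 ± 0.11, SE, limma adjusted p = 0.0032) and AKR1B10 (-0.37 ± 0.11, adjusted p = 0.046) passed as lower, which brought the members called lower to 4. AKR1C1 (0.23, adjusted p = 0.12) and AKR1C3 (-0.20, adjusted p = 0.14) did not pass.

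The authors' deposited table marked 5 of the 9 members as significant, where it marked 15.4% of all 18678 genes (8.28% higher and 7.08% lower). In that table GCLM was higher (log2 fold change 0.35, q = 0.038), and AKR1C2 (-1.75, q = 6.1e-04), NQO1 (-0.36, q = 0.0027), AKR1B10 (-1.10, q = 0.011) and GCLC (-0.36, q = 0.019) were lower. In the authors' deposited table AKR1C1 (0.71, q = 0.32), AKR1C3 (-1.19, q = 0.12), SRXN1 (q = 0.91) and TXNRD1 (q = 0.98) were not marked. All Cal27-shGRK2 libraries lay on one side of all Cal27 libraries in 7 of the 9 members, 2 higher and 5 lower, where this held for 49.6% of all genes in the table and 53.3% of those tested.

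Upstream of these enzymes, the transcript of NRF2 itself was lower. NFE2L2 had 33.5 and 34.6 FPKM in Cal27-shGRK2, against 42.5, 40.6 and 40.9 FPKM in Cal27, and fell by 0.27 ± 0.06 on the log2 scale (SE, limma adjusted p = 0.0034), while the authors' deposited table did not mark it (q = 0.21). The related factor NFE2L3 rose, with 121 and 124 FPKM in Cal27-shGRK2 against 83.2, 80.4 and 81.0 FPKM in Cal27 (log2 fold change 0.58 ± 0.06, adjusted p = 1.9e-06). The autophagy adaptor SQSTM1, which sequesters KEAP1 and is itself an NRF2 target, had 669 and 748 FPKM in Cal27-shGRK2 against 582, 652 and 578 FPKM in Cal27 and rose by 0.23 (adjusted p = 0.023). The SQSTM1 call was lost without Cal27 replicate 0 (limma adjusted p = 0.056), Cal27 replicate 2 (0.085) or Cal27-shGRK2 replicate 2 (0.25). It was also lost with no filter on low values (limma adjusted p = 0.053) and with limma's trend and robust options both switched off (0.092). A replicate block with the doubled library as number 1 lost it too (0.16), and the authors' deposited table did not mark SQSTM1 (q = 0.72).

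The other 9 of the 12 regulators did not pass, so 3 of 12 were called, where 29.6% of all genes tested were. The sensor KEAP1 averaged 52.6 FPKM in Cal27-shGRK2 and 49.9 FPKM in Cal27 (log2 fold change 0.07, limma adjusted p = 0.46). The ligase components CUL3 and RBX1 had log2 fold changes of 0.02 and -0.08, and BTRC, which is not part of the CUL3 ligase, had -0.13. The small MAF partners MAFF, MAFG and MAFK had -0.04, 0.08 and -0.03, the repressor BACH1 0.05 and the relative NFE2L1 0.11. The median over the 12 was 0.03, against -0.01 over all genes tested.

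Of 29 other reported NRF2 targets, 28 were in the table and 27 were tested, of which 4 rose and 9 fell. Over all genes tested, 15.0% were called higher and 14.6% lower. The number that rose lies near that background, and the number that fell lies above it. These targets were chosen with earlier results of these data known. Their median was -0.10 on the log2 scale. HMOX1, the haem oxygenase that NRF2 induces and BACH1 represses, had 18.8 and 19.2 FPKM in Cal27-shGRK2 against 8.55, 9.14 and 8.34 FPKM in Cal27, 2.19-fold higher (log2 fold change 1.05 ± 0.07, SE, limma adjusted p = 3.3e-08). A change as large was seen in 2.72% of all genes tested. The drug exporter ABCC3 (0.50) and the carbonyl reductase CBR3 (0.38) also rose. The exporter ABCC4 rose by 0.25 (limma adjusted p = 0.029). It no longer passed without Cal27 replicate 0 (adjusted p = 0.072), Cal27 replicate 2 (0.063), the doubled Cal27-shGRK2 library (0.094) or Cal27-shGRK2 replicate 2 (0.15).

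The largest falls among these targets were those of ALDH3A1 and GPX2, with means of 4.23 and 1.85 FPKM over the 5 libraries. ALDH3A1, an aldehyde dehydrogenase of squamous epithelia, had 1.29 and 1.14 FPKM in Cal27-shGRK2 against 6.09, 6.83 and 5.82 FPKM in Cal27 (log2 fold change -1.71 ± 0.10, SE, limma adjusted p = 3.1e-09). The glutathione peroxidase GPX2 had 0.406 and 0.262 FPKM in Cal27-shGRK2 against 3.02, 3.07 and 2.48 FPKM in Cal27 (-1.53 ± 0.11, adjusted p = 6.1e-08), although the authors' deposited table did not mark it (q = 0.16). GPX2 met the filter of 1 FPKM through the Cal27 libraries alone. Glutathione reductase, GSR, which regenerates reduced glutathione, had 43.1 and 48.4 FPKM in Cal27-shGRK2 against 64.0, 68.4 and 63.5 FPKM in Cal27 (log2 fold change -0.51). Ferritin heavy chain, FTH1, fell by 0.57, with an uncertain level because it has many processed pseudogenes, and the epoxide hydrolase EPHX1 fell by 0.53. The cystine transporter SLC7A11 (-0.23, adjusted p = 0.066) and thioredoxin, TXN (-0.10, adjusted p = 0.27), did not pass. The authors' deposited table marked SLC7A11 as lower (log2 fold change -0.29, q = 0.013) and did not mark FTH1 (q = 0.094).

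**Figure D4:**
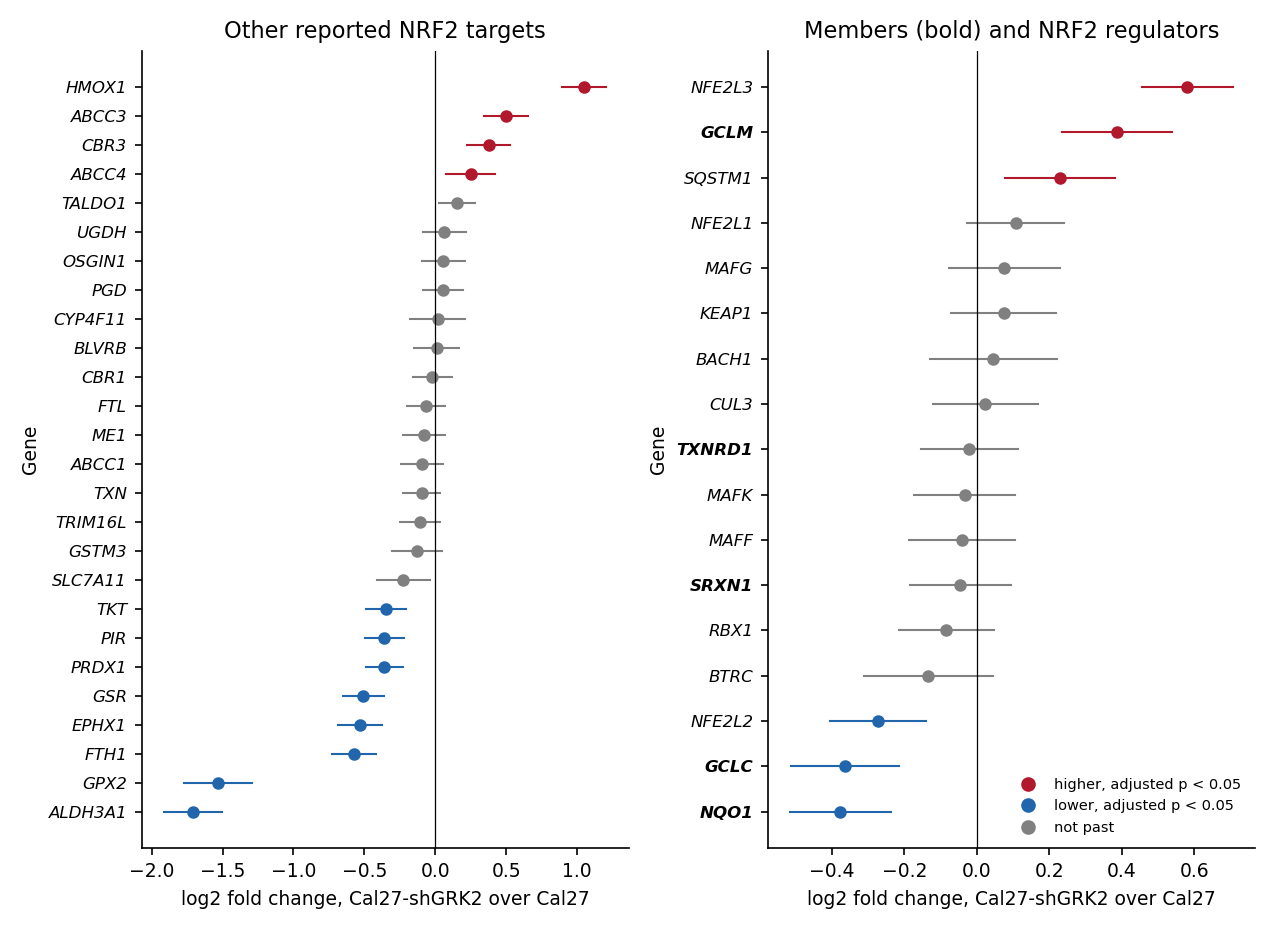
Log2 fold change of Cal27-shGRK2 over Cal27 with its 95% interval from limma, for other tested NRF2 targets (left) and for the 5 tested members with 12 regulators (right). Colours mark genes past an adjusted p of 0.05. HMOX1 lies at 1.05 and ALDH3A1 at -1.71, whereas the members lie between -0.38 and 0.39.

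Of 24 tested antioxidant enzymes that are not counted among the NRF2 targets, 3 rose and 5 fell, where 15.0% of all genes tested were called higher and 14.6% lower, so the count lies near that background. The median log2 fold change was -0.02. The mitochondrial and peroxisomal peroxiredoxin PRDX5 had 226 and 233 FPKM in Cal27-shGRK2 against 372, 378 and 383 FPKM in Cal27 (log2 fold change -0.72 ± 0.06, SE, limma adjusted p = 1.5e-07). The lipid peroxide reductase GPX4 fell by 0.46 and catalase, CAT, by 0.41. The glutaredoxin GLRX rose by 0.41 and the peroxiredoxin PRDX6 by 0.37. The authors' deposited table did not mark GLRX (q = 0.40), MSRA (q = 0.17), GGCT (q = 0.59) or GLRX3 (q = 0.57). The calls of MSRA (0.25), GGCT (-0.22) and GLRX3 (-0.17) were lost when either Cal27-shGRK2 library was left out (limma adjusted p = 0.093 and 0.076 for MSRA, 0.093 and 0.054 for GGCT, and 0.30 and 0.061 for GLRX3, without the doubled library and without replicate 2). GGCT was also lost without Cal27 replicate 0 (0.052), as was GLRX3 without Cal27 replicates 0 (0.17) and 2 (0.093). The number higher was 6 without Cal27 replicate 1 and 5 without Cal27 replicate 2, and the number lower was 3 without Cal27 replicate 0 or either Cal27-shGRK2 library.

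Of 10 other aldo-keto reductases listed, 6 were in the table and 5 were tested, of which 3 rose and 1 fell, where 29.6% of all genes tested were called. AKR1B1, the aldose reductase next to AKR1B10 on chromosome 7, had 67.5 and 69.2 FPKM in Cal27-shGRK2 against 50.6, 53.9 and 50.3 FPKM in Cal27 and rose by 0.40 ± 0.06 (SE, limma adjusted p = 1.5e-04). AKR1A1, which reduces aldehydes generally, fell by 0.25, and this call was lost without the doubled Cal27-shGRK2 library (adjusted p = 0.067). AKR1E2 (0.31) and KCNAB2 (0.25) rose, and both calls were lost without that library (adjusted p = 0.29 and 0.19), that of AKR1E2 also without Cal27 replicate 1 (0.076) and that of KCNAB2 without Cal27 replicate 0 (0.051). The authors' deposited table did not mark AKR1A1 (q = 0.12) or KCNAB2 (q = 0.44).

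GCLM and NQO1 had changes of nearly the same size, and their order turned in several alternatives (0.34 for GCLM and -0.36 for NQO1 with the computed library added). GCLM, with the marginally larger value, was taken for a comparison of profiles. The genes whose log2(FPKM + 1) profile over the 5 libraries lay nearest to that of GCLM, after centring on each gene's mean, were SPSB2, PTPN12 and HIST1H2BC, at distances of 0.034, 0.041 and 0.044 log2 units. A total of 36 genes lay within 0.1 log2 units, and the points share their libraries and groups.

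Across the settings tried, NQO1, GCLM and GCLC passed in all 15 alternatives. Their log2 fold changes ranged from -0.45 to -0.30, from 0.29 to 0.49 and from -0.40 to -0.32, and the largest adjusted p was 0.031, for GCLM. TXNRD1 and SRXN1 passed in none of the 15.

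**Figure D5:**
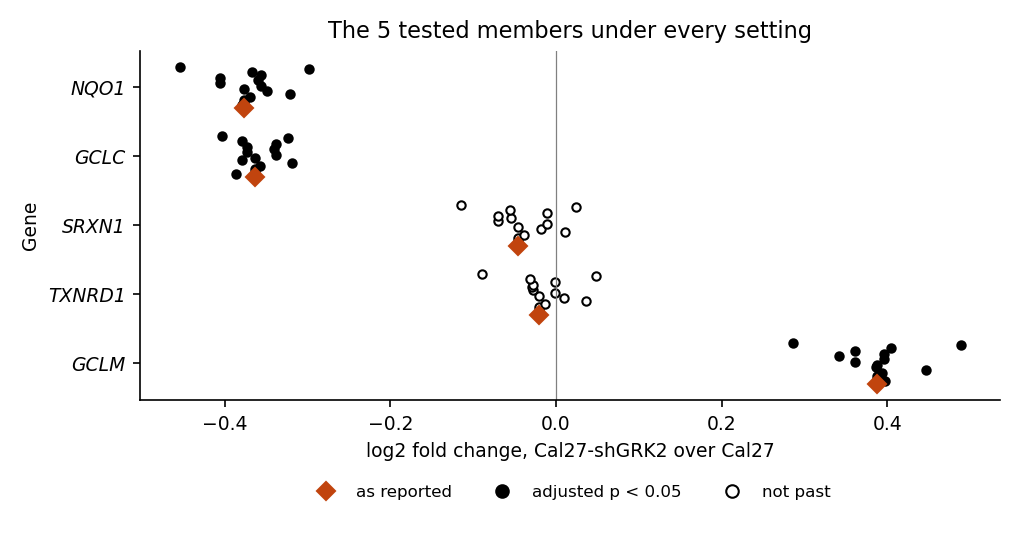
Log2 fold change of the 5 tested members under the settings as reported (diamonds) and under 15 alternatives (circles, filled where the adjusted p is below 0.05). All circles of NQO1, GCLC and GCLM are filled and stay on one side of 0, and those of TXNRD1 and SRXN1 are open and lie on both sides.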

How the data were processed

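Per the submitters' processing notes, the stranded mRNA reads went through TopHat2 2.1.0, Bowtie2 2.2.6 and Cuffdiff 2.2.1, with hg38 as the build. The role of each tool and the gene annotation are not given in the sources used here. Per the file headers, the deposited columns are FPKM per library and per condition. Further deposited columns give the authors' log2 fold change, its score (a test statistic), p-value and q-value. An FPKM of 1e-04 or less was read as 0. Low values did not fall on steps of 1 read (between libraries, no more than 3.09% of low genes shared a bin of log2 ratios). The depth of each library is therefore unknown. Gene positions are from GENCODE version 29 on the same build, where the 3 AKR1C genes and GCLC carry later ID versions than in the table.

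With limma 3.58.1 in R 4.3.3, log2(FPKM + 1) was tested for genes averaging 1 FPKM or more in the 5 distinct libraries (trend, robust, two-sided, Benjamini-Hochberg over 13377 genes, 3 residual degrees of freedom). The planned fit already counted the identical columns once. The fit was tested on simulated data. All 9 members, GRK2, all regulators, HMOX1, SLC7A11, TXN, and up to 5 rises and 5 falls past the threshold per other list were named by rule. Of the genes the rule names, 1 is not reported here. The members and lists were chosen with earlier results of these data known. Alternatives covered the pseudocount, filters, scaling, variance model, replicate block, single libraries left out, and a 6th library computed from the authors' value.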

Additional observations from a re-analysis of the deposited data

How the results depend on the processing

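For the 9 enzymes, the count called higher was 1 and the count called lower was 2 in all alternatives except 2. With no filter beyond a value above 0, 4 were lower because AKR1C2 and AKR1B10 were then tested, and under rescaling 3 were lower because AKR1C2 was. Under rescaling AKR1C2 met the filter through the Cal27 libraries alone, so that call is not independent of the filter. The fold change of TXNRD1, never past the threshold, was 0.036 under rescaling to a common total and 0.010 under quantile normalization, and ran from -0.089 to 0.049 with 1 library left out. That of SRXN1 was 0.010 under rescaling and ran from -0.12 to 0.024 with 1 library left out. Both were above 0 without the doubled Cal27-shGRK2 library. Of the regulators that did not pass, MAFF (0.013 under rescaling), MAFK (0.022 under rescaling, 0.0078 with the 6th library, -0.080 to 0.013 with 1 library left out) and CUL3 (-0.0079 in a replicate block with the doubled library as number 0, -0.0079 to 0.075 with 1 library left out) also changed sign. The summed AKR1C level ranged from -0.54 to -0.35 with 1 library left out. The genes called ranged from 2600 to 4028 with 1 library left out, the higher from 1218 to 2205 and the lower from 1088 to 1843. Rescaling to a common total shifted the median of all genes to 0.05 and gave 2927 higher and 1575 lower, against 2008 and 1949.

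Other antioxidant enzymes called higher numbered 5 under median-of-ratios scaling, a filter at 5 FPKM, quantile normalization or the 6th library, 6 under rescaling or the replicate block with the doubled library as number 0, and 2 to 6 with 1 library left out. Those called lower numbered 3 under rescaling, with limma's trend and robust options both switched off, or in the replicate block with the doubled library as number 1. They numbered 3 to 5 with 1 Cal27 library left out. The causes were not tested. Of 43 other named genes, 12 lost a call in at least 1 alternative and SLC7A11 gained one in 3 alternatives. The 43 include 9 regulators, SLC7A11 and TXN, which had no call to lose.

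The replicate numbers link 2 pairs of libraries at most, which is too few to show pairing, and same-numbered libraries deviated from their group means with r of 0.08 (number 0) and 0.02 (number 2) across genes. The doubled library, labelled both 0 and 1, had r of -0.07 with Cal27 replicate 1. The 2 Cal27-shGRK2 libraries deviate from their mean by equal and opposite amounts, so their r with any Cal27 library differs only in sign. These r values are therefore not separate observations on pairing. The replicate block gave 3960 and 3481 genes called, and left the counts of the 9 enzymes at 1 higher and 2 lower. With 2 Cal27-shGRK2 libraries and unknown depth, small differences of TXNRD1 and SRXN1 and the split among AKR1C genes cannot be resolved.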

Other observations

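Enzymes and receptors of retinoid, steroid and prostaglandin metabolism, the substrates of the aldo-keto reductases, were also looked up. Of 21 listed genes, 17 were in the table and 13 were tested, of which 3 rose and 4 fell, where 15.0% of all genes tested were called higher and 14.6% lower. PTGES, the inducible prostaglandin E synthase, had 0.581 and 0.820 FPKM in Cal27-shGRK2 against 4.01, 3.94 and 4.58 FPKM in Cal27 (log2 fold change -1.61 ± 0.11, SE, limma adjusted p = 1.9e-08). It met the filter of 1 FPKM through the Cal27 libraries alone. CRABP2, which carries retinoic acid to its nuclear receptors, had 6.05 and 5.74 FPKM in Cal27-shGRK2 against 3.10, 3.66 and 2.96 FPKM in Cal27 (0.70 ± 0.10, adjusted p = 4.2e-05). The retinal reductase DHRS3 fell by 0.40 (adjusted p = 0.0042). The retinoic acid receptor RARG (-0.37) and the retinal reductase RDH11 (-0.25) fell, and both calls were lost without Cal27-shGRK2 replicate 2 (limma adjusted p = 0.061 and 0.066). RDH10 (0.31) and PTGR1 (0.20) rose. The RDH10 call was lost without any single library except Cal27 replicate 2, and that of PTGR1 without Cal27 replicate 0 (0.060), Cal27 replicate 2 (0.058) or Cal27-shGRK2 replicate 2 (0.20). The authors' deposited table did not mark RDH11 (q = 0.26), RDH10 (q = 0.99) or PTGR1 (q = 0.092).

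HSD17B2, which inactivates sex steroids and was picked after its values were seen, lay under the filter, at 0.858 and 0.804 FPKM in Cal27-shGRK2 and 0.151, 0.0670 and 0.0669 FPKM in Cal27. Other genes of the list under the filter went the other way, with means of 0.0171 FPKM in Cal27-shGRK2 and 0.163 FPKM in Cal27 for ALDH1A1. CYP26B1 averaged 0.0480 and 0.185 FPKM. ALDH1A2 averaged 0.546 and 0.176 FPKM, with overlapping groups.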
